A study of Mus musculus with 9 samples.

Results

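The genes described here are the 5 NF-kB subunits Nfkb1, Nfkb2, Rel, Rela and Relb and 5 of their inhibitors and regulators, Nfkbia, Nfkbie, Nfkbiz, Tnfaip3 and Bcl3. They were chosen by gene name and make up 10 of the 46517 genes in the table. RNA was sequenced from neutrophils of C57BL/6 mice that carried an orthotopic pancreatic tumor, with 3 libraries each from bone marrow, blood and tumor. The tumors were grown by injecting luciferase-expressing pancreatic tumor cells, a single mouse line, into the pancreas, and neutrophils were sorted on day 27 as live CD45+ cells that stained for Ly6G and Ly6C but not for the lineage markers CD3, B220 and NK1.1. The labels call the bone marrow cells Ly6G.hi neutrophils and the blood and tumor cells Ly6G+ neutrophils. All 3 groups came from tumor-bearing mice (OT mice), so that no group shows these genes without a tumor, and the sources used here do not state the age of the mice. Each library was a pool of several OT mice, and all tumors came from that cell line. Tumors were digested with collagenase and DNase at body temperature before the sort, blood was lysed to remove red cells, and no digestion is stated for bone marrow, so that handling and compartment cannot be told apart. In such bulk samples a smaller share of expressing cells and less RNA per cell cannot be told apart either.

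NF-kB is a family of dimeric transcription factors that is held in the cytoplasm of resting cells by inhibitor proteins of the IkB family. Signals from cytokine and Toll-like receptors activate the IKK kinases, the inhibitors are marked for degradation, and the released dimers bind kB sites and switch on genes of inflammation and survival. Several of the switched-on genes encode inhibitors of the pathway itself, which gives negative feedback. In neutrophils the pathway is known for driving cytokine and chemokine expression and for delaying cell death. Rela, Rel and Relb carry activation domains, whereas Nfkb1 and Nfkb2 encode the precursors of p50 and p52. Nfkbia encodes IkB-alpha, the fast-acting inhibitor of Rela and Rel dimers, and Nfkbie encodes the related IkB-epsilon. Nfkbiz (IkB-zeta) and Bcl3 are nuclear members of the IkB family that modify transcription with p50 or p52. Tnfaip3 encodes A20, a ubiquitin-editing enzyme that shuts down signaling upstream of IKK.

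Since feedback inhibitors are known as kB-driven genes, the stretch before their transcription starts is shown first. RefSeq starts on GRCm38.p6 were available here for 7 of the 10 members and gave 10 promoters, of which the 250 bases before the start were searched on both strands for the kB consensus, with overlapping matches merged into 1 site. A match was found in 7 of the 10 promoters, beside 7.25% of 32851 promoters in the table. By gene, 5 of the 7 members had a match at any start, beside 8.23% of 27025 genes. For Nfkbia, Nfkbie and Rel the whole stretch is printed 5′ to 3′ along the gene, with the matched bases in capitals.
Nfkbia (chr12:55492648-55492897, minus strand): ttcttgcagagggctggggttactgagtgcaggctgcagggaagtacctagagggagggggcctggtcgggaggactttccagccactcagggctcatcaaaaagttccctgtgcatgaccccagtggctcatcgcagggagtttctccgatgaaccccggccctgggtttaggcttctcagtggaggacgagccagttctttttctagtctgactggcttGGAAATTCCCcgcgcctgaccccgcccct
Nfkbie (chr17:45555450-45555699, plus strand): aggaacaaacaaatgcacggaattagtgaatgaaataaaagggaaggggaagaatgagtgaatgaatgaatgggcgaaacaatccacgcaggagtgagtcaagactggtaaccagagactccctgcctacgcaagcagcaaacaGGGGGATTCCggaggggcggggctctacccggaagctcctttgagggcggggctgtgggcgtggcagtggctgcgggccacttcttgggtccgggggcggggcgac
Rel (chr11:23770970-23771219, minus strand): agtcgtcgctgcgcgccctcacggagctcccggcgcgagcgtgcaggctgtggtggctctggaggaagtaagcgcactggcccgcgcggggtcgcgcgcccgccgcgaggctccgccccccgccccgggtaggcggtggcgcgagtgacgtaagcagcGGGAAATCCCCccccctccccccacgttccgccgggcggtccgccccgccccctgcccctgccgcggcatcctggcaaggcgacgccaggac
The Nfkbia match, GGAAATTCCC, lay 29 to 20 bases before the start. The Nfkbie match, GGGGGATTCC, lay 106 to 97 bases and the Rel match, GGGAAATCCCC, 92 to 82 bases before it. Tnfaip3 had a pair of matches before its first start, GGGACACCCC at 125 to 116 bases and GGAAATCCCC at 12 to 3 bases, and none before its second start. Nfkb2 had GGGAATTCCCC at 39 to 29 bases and GGGGCTTTCC at 11 to 2 bases before its first start, and 1 match before each of the other two. Some of these windows overlapped annotated exons of their own gene. This held for all 250 bases of the first Nfkb2 window, 234 of the third and 110 of the first Tnfaip3 window. Only 0.396% of all promoters held 2 or more matches. No match was found in these windows of Rela and Bcl3, and Nfkb1, Relb and Nfkbiz had no entry. A match describes the letters of the window and does not show that a factor binds there.

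**Figure D1:**
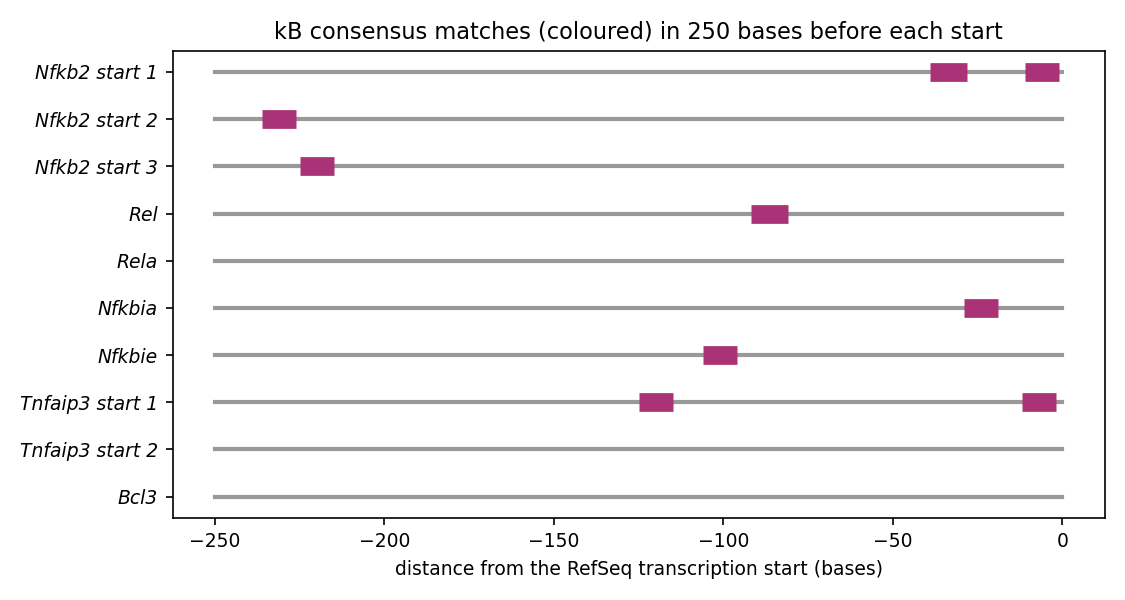
Positions of kB consensus matches (colored blocks) in the 250 bases before each RefSeq transcription start of the 7 members with an entry. The x axis gives the distance from the start in bases, and 7 of the 10 starts have at least 1 match.

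The deposited values are log2 FPKM. Whole reads could be recovered from them for all 46517 genes, and the libraries held between 4580807 and 7949367 reads on genes. Testing was limited to the 17714 genes that reached 5 reads in a library, and all 10 members passed. Each compartment was compared with limma on the log2 FPKM values, and a gene was called higher or lower at a Benjamini-Hochberg adjusted p under 0.05 over all genes tested. The p-values measure the spread between pools, and both tumor comparisons use the same tumor libraries. The median log2 fold change over all genes tested was 0.50 for tumor against blood, 0.29 for tumor against bone marrow and 0.00 for blood against bone marrow. Tumor differences are to be read beside these medians, since scaling by plain library totals moved the medians of the tumor comparisons further, to 0.95 and 0.74. As a check of the sort, the 10 neutrophil markers summed to between 10020 and 12290 RPM (reads scaled to a library of 1000000) in tumor, 29591 to 30148 in blood and 32749 to 34454 in bone marrow. Ly6g itself lay between 28.7 and 83.7 RPM in tumor, 95.7 and 127 in blood and 600 and 737 in bone marrow. Markers of other cells were measured in the tumor libraries too: 8 epithelial markers summed to 2557 to 5519 RPM there, against 7.03 to 10.7 in bone marrow and 12.2 to 134 in blood, where 1 library reached 134 and the other two lay near 12.2. The 6 fibroblast markers summed to 1098 to 1352 RPM in tumor and to at most 7.96 elsewhere. The 5 acinar markers summed to 346 to 1716 RPM in tumor and at most 5.71 elsewhere. Prss1 was at 0 in all libraries, and 4 of the 4 tested were called higher against both. Of these, Amy2a1 had no read outside the tumor and so passed the filter only through the tumor libraries. The 5 endothelial markers summed to 85.5 to 122 RPM in tumor and at most 34.7 elsewhere, with 4 called higher against both. All 8 epithelial and all 6 fibroblast markers passed the test as higher in the tumor against each of the other compartments, and none of them was at 0 in tumor. Of these, at least Cldn4 and Pdgfra, which had no read in bone marrow, passed the filter of 5 reads only through the tumor libraries. Their calls are therefore no independent support. The 10 macrophage and monocyte markers summed to 508 to 641 RPM in tumor, 1313 to 1505 in blood and 472 to 515 in bone marrow. In tumor against blood 2 of them were called higher and 3 lower, beside 33.7% and 21.1% of all genes tested. These counts depended on the scaling. They were 5 higher and 2 lower under plain library totals and 0 higher and 3 lower under quantile normalization. With every library centered on its median gene they were 1 higher and 4 lower. The part of these other cells in the values of the members was not tested.

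Of the 10 members, only 4 of the 5 regulators differed in the same direction in tumor from both other compartments. Tnfaip3, Nfkbiz, Nfkbia and Nfkbie were higher in the tumor than in either other compartment, by between 1.90- and 40.5-fold. No subunit was higher than in both. Against blood, 61.7% of all genes tested had a smaller or equal log2 fold change than Nfkbie. For Nfkbia, Nfkbiz and Tnfaip3 these shares were 74.1%, 74.7% and 92.6%. Against bone marrow the subunits Relb (1.37) and Nfkb2 (1.18) exceeded Nfkbie (0.92). Against blood, 4 of the 10 members were higher and 3 were lower, beside 33.7% and 21.1% of all genes tested, so that the counts alone lay near those of genes at large. Against bone marrow 7 members were higher and 0 lower by limma, beside 26.8% and 19.5% of all genes. Higher against both were 4 members, beside 20.7% of genes, and lower against both were 0, beside 13.2%. For 4 of the 10 members every tumor library lay above all 6 other libraries, which held for 25.2% of all genes tested, and for 0 members every tumor library lay below, which held for 14.6%. Reads on the 10 members together came to between 6584 and 9159 RPM in tumor, 1458 and 1546 in blood and 859 and 956 in bone marrow.

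**Figure D2:**
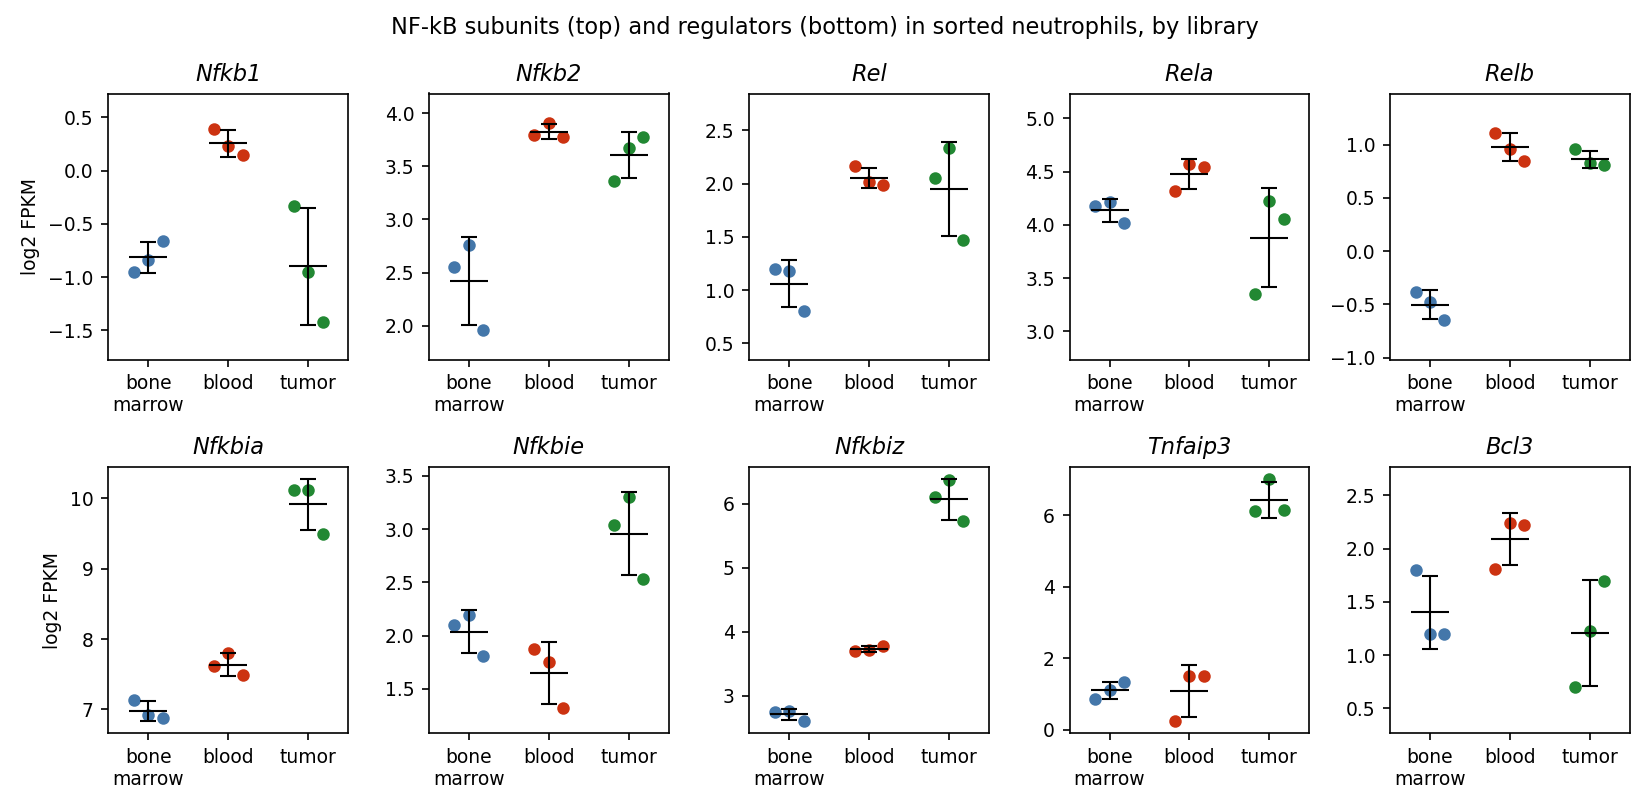
Deposited log2 FPKM of each member in every library (points), with the mean (long bar) and SD (whiskers) of the 3 libraries of a compartment. Each panel has its own y axis. The 3 tumor points of Nfkbia, Nfkbie, Nfkbiz and Tnfaip3 sit above all 6 others.

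Tnfaip3, the gene of the A20 enzyme, showed the widest difference of the 10 genes. It lies on the minus strand of chromosome 10 (19000910 to 19015657 in GRCm38) and has 9 exons after merging of its transcripts. Its reads were 178, 181 and 249 in the bone marrow libraries and 69, 234 and 198 in the blood libraries, but 6333, 14461 and 8374 in the tumor libraries. On the log2 FPKM scale these were 0.85, 1.12 and 1.35 in the bone marrow libraries, 0.25, 1.51 and 1.52 in those of blood and 6.11, 7.02 and 6.16 in those of tumor. The 3 tumor libraries stood together far above the rest, while bone marrow and blood overlapped and blood library 1 was the lowest of all. The log2 fold change was 5.34 ± 0.35 (SE) against blood, a 40.5-fold difference, with a limma adjusted p of 9.03e-07. Against bone marrow it was 5.32 ± 0.35, with a limma adjusted p of 9.23e-07. Of all genes tested, 92.6% had a smaller or equal log2 fold change in each tumor comparison. Between blood and bone marrow no difference was called (log2 fold change -0.02, 95% confidence interval -0.78 to 0.75), and without blood library 1 the value was 0.41 with a limma adjusted p of 0.31.

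Nfkbiz, which encodes the nuclear regulator IkB-zeta, followed with a stepwise pattern over the compartments. The gene covers 27525 bases of chromosome 16 on the minus strand (55811375 to 55838899). Its log2 FPKM was 2.75, 2.77 and 2.61 for the marrow, 3.69, 3.71 and 3.79 for the blood and 6.11, 6.36 and 5.73 for the tumor. No compartments overlapped, and blood lay between the other two. It was 5.05-fold higher in tumor than in blood (log2 fold change 2.34 ± 0.15 SE, limma adjusted p 7.94e-07) and 10.2-fold higher than in bone marrow (3.36 ± 0.15, limma adjusted p 1.14e-07). Blood exceeded bone marrow by 2.03-fold (1.02 ± 0.15, limma adjusted p 0.000456).

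Nfkbia, the gene of the classical inhibitor IkB-alpha, was the most abundant member in every compartment. It is a short gene of 6 merged exons on the minus strand of chromosome 12 (55489410 to 55492647), just downstream of the printed promoter. Its reads numbered 3047, 2215 and 2521 for bone marrow, 2511, 4044 and 2714 for blood and 22309, 27207 and 18530 for tumor. The log2 FPKM values were 7.14, 6.92 and 6.87, then 7.62, 7.81 and 7.48, and in tumor 10.12, 10.12 and 9.49. Each tumor library held several times the level of any other library, and the blood libraries lay slightly above those of bone marrow without overlap. Tumor exceeded blood by 4.84-fold (log2 fold change 2.27 ± 0.17 SE, limma adjusted p 2.56e-06) and bone marrow by 7.64-fold (2.93 ± 0.17, limma adjusted p 5.18e-07). The smaller difference between blood and bone marrow, 0.66 ± 0.17 with a limma adjusted p of 0.0144, was not called without bone marrow library 2 (limma adjusted p 0.0519), bone marrow library 3 (0.0606) or blood library 2 (0.0648). It was not called without a variance trend either (limma adjusted p 0.0773).

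Nfkbie, the gene of IkB-epsilon, differed in the same direction by a smaller amount. It lies on the plus strand of chromosome 17 (45555703 to 45563169) and had 213, 193 and 173 reads in the bone marrow libraries, 108, 140 and 87 in those of blood and 379, 556 and 343 in those of tumor. In log2 FPKM it stood at 2.10, 2.20 and 1.81 for the marrow, 1.88, 1.75 and 1.32 for the blood and 3.04, 3.30 and 2.54 for the tumor. The lowest tumor library was still above the highest bone marrow library, and bone marrow and blood overlapped. It was 2.48-fold higher in tumor than in blood (log2 fold change 1.31 ± 0.23 SE, limma adjusted p 0.000712) and 1.90-fold higher than in bone marrow (0.92 ± 0.23, limma adjusted p 0.00707). With every library centered on its median gene these calls were lost, at 0.56 (limma adjusted p 0.0662) and 0.44 (limma adjusted p 0.147), whereas those of Tnfaip3, Nfkbiz and Nfkbia in tumor held under each of the 23 alternatives other than a fold minimum.

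Bcl3, the other nuclear IkB protein, did not share the pattern of the 4 inhibitors. It lies on the minus strand of chromosome 7 (19808462 to 19822770), where it shares 161 exonic bases with the antisense gene Gm16175, which held 0 to 5 reads. Its log2 FPKM was 1.80, 1.2 and 1.2 for bone marrow, 1.81, 2.24 and 2.22 for blood and 0.70, 1.23 and 1.70 for tumor, where the libraries were widely spread. All tumor libraries were below all blood libraries, but they overlapped those of bone marrow. It was 1.84-fold lower in tumor than in blood (log2 fold change -0.88 ± 0.27 SE, limma adjusted p 0.0159). That call depended on the scaling and on single libraries: under plain library totals the log2 fold change was -0.43 (limma adjusted p 0.201), and it was also lost without tumor library 1 (-0.63, limma adjusted p 0.0757), tumor library 2 (-0.89, 0.0595), blood library 2 (-0.80, 0.0623) or blood library 3 (-0.82, 0.051). Neither tumor against bone marrow (-0.19, 95% confidence interval -0.78 to 0.40) nor blood against bone marrow (0.69, 0.10 to 1.28, limma adjusted p 0.0729) was called, though blood was called higher without bone marrow library 1 (0.89, limma adjusted p 0.0471).

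**Figure D3:**
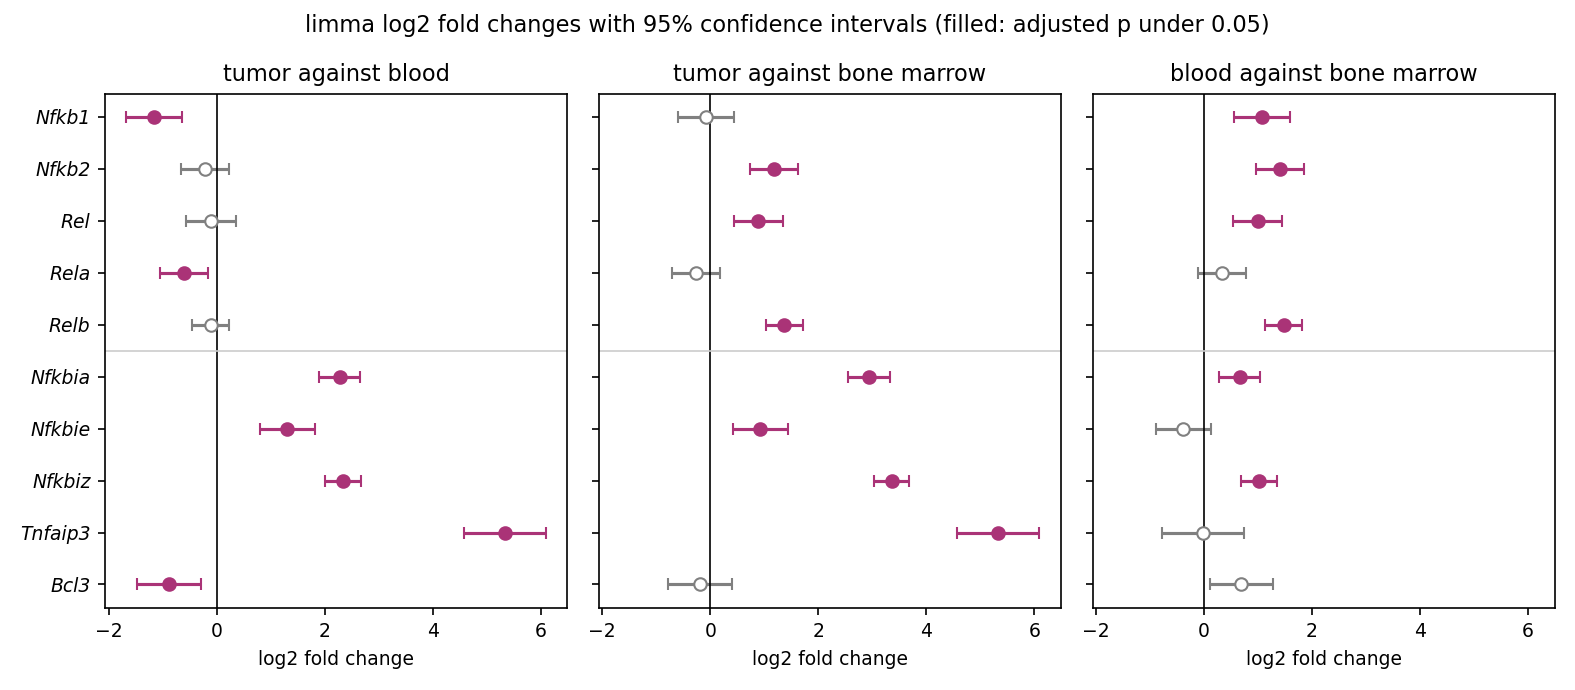
Log2 fold changes of the 10 members (points) with 95% confidence intervals from limma, in panels for tumor against blood, tumor against bone marrow and blood against bone marrow. Filled points have an adjusted p under 0.05 over all genes tested. Tnfaip3 lies at 5.34 and 5.32 in the tumor panels and at -0.02 in the third.

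The subunits did not share a single pattern. Nfkb2, Rel and Relb were higher in blood and in tumor than in bone marrow, without a called difference between tumor and blood, whereas Nfkb1 was higher in blood than in either other compartment. The 8 markers of immature neutrophils, granule genes of neutrophil precursors, moved with the bone marrow comparisons: they summed to 73507 to 81633 RPM in bone marrow, against 1884 to 2952 in blood, with tumor sums of 6729 to 10619, and all 8 were called lower in blood and in tumor than in bone marrow. The 6 red cell and platelet markers were all called higher in blood than in bone marrow, with sums of 719 to 937 RPM in blood, 29.9 to 52.3 in bone marrow and 14.7 to 132 in tumor. The part of either list in the values of the subunits was not tested. In blood against bone marrow 6 of the 10 members were higher (Nfkb1, Nfkb2, Rel, Relb, Nfkbia and Nfkbiz) and 0 lower by limma, beside 13.7% and 18.1% of all genes tested.

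Relb, whose product pairs mainly with p52, lies on the minus strand of chromosome 7 (19606217 to 19629438). Its log2 FPKM was -0.38, -0.48 and -0.65 in the bone marrow libraries, 1.11, 0.96 and 0.85 in those of blood and 0.95, 0.83 and 0.81 in those of tumor. Every blood and tumor library exceeded every bone marrow library, and blood and tumor overlapped. Blood was 2.78-fold above bone marrow (log2 fold change 1.48 ± 0.16 SE, limma adjusted p 5.25e-05) and tumor 2.58-fold above it (1.37 ± 0.16, limma adjusted p 4.43e-05). The difference between tumor and blood was -0.11, with a 95% confidence interval of -0.45 to 0.23.

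Nfkb2, the precursor gene of p52, lies on the plus strand of chromosome 19 (46304320 to 46312385) and had log2 FPKM values of 2.55, 2.76 and 1.96 for the marrow, 3.79, 3.90 and 3.78 for the blood and 3.36, 3.67 and 3.77 for the tumor. Bone marrow was again lowest in all 3 libraries, and its library 3 was lower than the other two. The gene was 2.64-fold higher in blood (1.40 ± 0.20 SE, limma adjusted p 0.000421) and 2.26-fold higher in tumor (1.18 ± 0.20, limma adjusted p 0.000702) than in bone marrow. Tumor minus blood was -0.22 (95% confidence interval -0.67 to 0.22). Nfkb2 shares 299 exonic bases with Psd on the opposite strand, and the library kit does not mark strand, and Psd held 1 to 69 reads per library. It also shares 531 exonic bases with AC114539.1 on the opposite strand, whose reads were not analysed here.

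Rel, the gene of c-Rel, lies on the minus strand of chromosome 11 (23736847 to 23770970) and had log2 FPKM values of 1.2, 1.18 and 0.80 for bone marrow, 2.16, 2.01 and 1.99 for blood and 2.05, 2.33 and 1.47 for tumor. Tumor library 3 was the lowest of the tumor libraries, yet above all bone marrow libraries. Blood exceeded bone marrow by 1.99-fold (1.00 ± 0.21 SE, limma adjusted p 0.00392) and tumor by 1.86-fold (0.89 ± 0.21, limma adjusted p 0.00461, and 0.41 with 0.152 after median centering). Tumor and blood differed by -0.10, with a 95% confidence interval of -0.56 to 0.35. For Nfkb2, Rel and Relb the small tumor minus blood values turned positive under plain library totals and were called lower in tumor with median centering, so that no direction can be read from them.

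Nfkb1, the precursor gene of p50, was the subunit that differed most between blood and tumor. It covers 106893 bases of chromosome 3 on the minus strand (135584655 to 135691547). Its log2 FPKM was -0.95, -0.84 and -0.66 in the bone marrow libraries, 0.39, 0.23 and 0.14 in those of blood and -0.33, -0.95 and -1.42 in those of tumor. Blood lay above all libraries of the other two compartments, and tumor spanned the range of bone marrow. Nfkb1 was 2.10-fold higher in blood than in bone marrow (1.07 ± 0.23 SE, limma adjusted p 0.00522) and 2.23-fold lower in tumor than in blood (-1.16 ± 0.23, limma adjusted p 0.00166), and each of these calls held under each of the 23 alternatives. Among these alternatives is a filter of log2 FPKM over 0 in 3 libraries, which Nfkb1 passed only through the blood libraries. That setting is therefore no independent support. Tumor against bone marrow gave -0.08 (95% confidence interval -0.60 to 0.43).

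Rela, the gene of p65 and the main activating subunit, had the narrowest span of compartment means among the subunits, from 3.88 to 4.48. It lies on the plus strand of chromosome 19 (5637483 to 5648130). Its log2 FPKM was 4.18, 4.22 and 4.02 for the marrow, 4.31, 4.57 and 4.55 for the blood and 3.35, 4.22 and 4.06 for the tumor. Tumor library 1 was the lowest of the 9 libraries, and the other two tumor libraries lay below all blood libraries. Rela was 1.52-fold lower in tumor than in blood (-0.60 ± 0.20 SE, limma adjusted p 0.0264), but this call was lost under plain library totals (-0.15, limma adjusted p 0.521), and also without tumor library 1 (-0.34, 0.0513), tumor library 3 (-0.69, 0.0502), blood library 2 (-0.55, 0.0881) or blood library 3 (-0.56, 0.0737). The Rela call was lost as well under quantile normalization (-0.23, limma adjusted p 0.380) and with 1 added to FPKM (-0.57, 0.0550). The same held without a variance trend (limma adjusted p 0.0882) and with only the 2 compartments compared in the fit (0.0803). Rela was not called in tumor against bone marrow (-0.26, 95% confidence interval -0.70 to 0.19) or in blood against bone marrow (0.34, -0.10 to 0.78).

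Ratios between members of the same library do not depend on how libraries are scaled to each other. Reads were therefore divided by exon length, which differs from the genomic length behind most deposited values. Each regulator was set against Rela as a common reference. IkB-zeta and Bcl3 work with p50 or p52, and A20 acts upstream of IKK. Their ratios to Rela are therefore not ratios of an inhibitor to its target. For 1 Rela read per kilobase of exon, bone marrow held 0.072 Tnfaip3 reads, blood 0.0563 and tumor 3.46. As log2 ratios, Tnfaip3 over Rela lay between -4.09 and -3.43 for bone marrow, -4.83 and -3.79 for blood and 1.34 and 2.03 for tumor. Tnfaip3 RNA thus went from the lesser of the pair in 6 libraries to the greater in all 3 tumor libraries. Nfkbiz over Rela lay between -0.78 and -0.75 in the bone marrow libraries, -0.20 and 0.04 in those of blood and 2.33 and 3.42 in those of tumor. Nfkbia over Rela was positive throughout, at 1.92 to 2.17, 2.15 to 2.52 and 4.65 to 5.98 in the same order. Nfkbie over Rela stayed negative and was highest in tumor, with -2.71 to -2.52 in bone marrow, -3.73 to -2.94 in blood and tumor values of -2.03 to -0.82. For these 4 genes the tumor ratios did not overlap those of the other compartments, whereas Bcl3 over Rela overlapped in all 3, with means of -2.0, -1.65 and -1.93. Averaged over members, the log2 level of the 5 regulators minus that of the 5 subunits was 1.17 ± 0.10 (SD, n = 3) for the marrow, 0.51 ± 0.20 for the blood and 3.02 ± 0.13 for the tumor. These ratios are a description and were not tested.

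**Figure D4:**
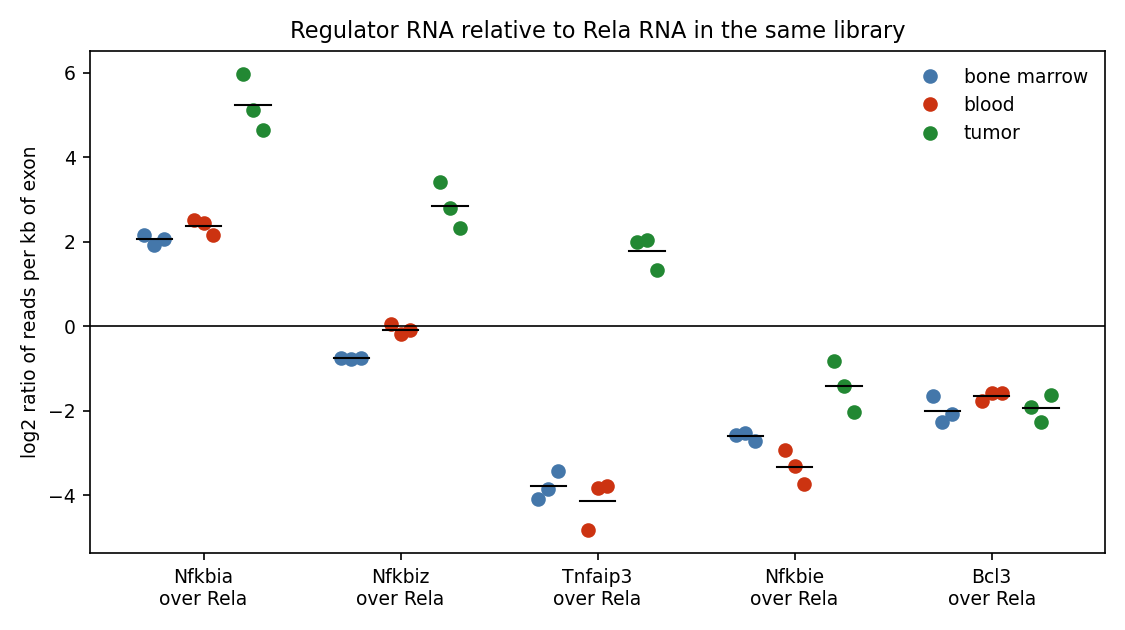
Log2 ratio of each regulator to Rela in the same library, from reads per kilobase of exon (points, libraries; bars, means of 3). At 0 the pair would have equal RNA levels. Tnfaip3 crosses 0 only in the 3 tumor libraries, and the tumor points of Bcl3 overlap the others.

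Ratios between subunits were formed in the same way. Relb over Rela lay between -3.91 and -3.78 for bone marrow, -2.91 and -2.42 for blood and -2.61 and -1.61 for tumor, so that Relb RNA remained well below Rela RNA everywhere. Nfkb2 over Nfkb1 was 0.77 ± 0.54 (SD, n = 3) in the bone marrow libraries, 1.10 ± 0.15 in those of blood and 2.04 ± 0.76 in those of tumor, with tumor libraries from 1.22 to 2.73 all above those of the other compartments, which overlapped each other. The highest blood library, at 1.21, nearly reached the lowest tumor library.

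The order of the members' levels, in scaled reads per kilobase of exon, changed with compartment. Reads were scaled here to a total of 1000000, with each library total first multiplied by the authors' scaling factor. These levels are therefore not on the scale of the RPM values given elsewhere, which use plain library totals. In bone marrow Nfkbia was first with 254 ± 25.4 (SD, n = 3), followed by Rela with 61.1 ± 4.44, Nfkbiz with 35.9 ± 2.21 and Bcl3 with 15.6 ± 3.95. Nfkbie, Rel and Nfkb2 came next at 10.1 ± 1.37, 9.60 ± 1.41 and 8.82 ± 2.35, with overlapping libraries, and Nfkb1, Tnfaip3 and Relb were last at 5.05 ± 0.516, 4.43 ± 0.753 and 4.22 ± 0.394, also overlapping. In blood Nfkbia stood at 401 ± 45.5, Rela and Nfkbiz overlapped at 77.4 ± 7.36 and 72.8 ± 2.49, Bcl3 and Nfkb2 overlapped at 24.8 ± 3.97 and 22.7 ± 1.13, and Tnfaip3 was last at 4.69 ± 1.97. In tumor Nfkbia reached 1972 ± 453, Nfkbiz 373 ± 80.0 and Tnfaip3 184 ± 69.9, all 3 above Rela at 52.6 ± 15.4 without overlap. Nfkb2, Nfkbie, Rel, Bcl3 and Relb then lay between 10.9 and 19.6, each overlapping its neighbor, and Nfkb1 was last at 4.98 ± 1.90. Tnfaip3 thus moved from the ninth and the tenth place to the third.

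The rest of the pathway was described with lists of genes by role, whose counts are to be read beside the shares of all genes given above (33.7% higher and 21.1% lower against blood, 26.8% and 19.5% against bone marrow). Of 13 IKK and upstream kinases, 3 were higher and 2 lower in tumor than in blood and 5 were higher and 0 lower than in bone marrow by limma, with median log2 fold changes of -0.01 and 0.17 beside 0.50 and 0.29 over all genes. Of the core IKK subunits, Chuk was called higher in tumor than in bone marrow (0.51, limma adjusted p 0.0313) and not against blood (0.22). Ikbkb and Ikbkg were called in neither tumor comparison, with log2 fold changes of -0.32 and -0.17 for Ikbkb, and of -0.17 and -0.20 for Ikbkg. Ikbke, an IKK-related kinase, was higher than in both (3.21 ± 0.22 SE against blood, limma adjusted p 1.17e-06, and 0.85 ± 0.22 against bone marrow, limma adjusted p 0.00798), as was Tab1, a partner of the TAK1 kinase (1.48 ± 0.26, limma adjusted p 0.000621, and 0.94 ± 0.26, limma adjusted p 0.0113). Map3k14, the kinase NIK of the noncanonical pathway that processes p100 to p52, was lower than in blood (-0.68 ± 0.16, limma adjusted p 0.00456) and higher than in bone marrow (0.59 ± 0.16, limma adjusted p 0.0123), after a step of 1.27 from bone marrow to blood. The kinase counts depended on the scaling, with 7 higher and 0 lower against blood under plain library totals and 2 higher and 9 lower with median centering. Against bone marrow they were 7 higher and 0 lower under plain library totals. Quantile normalization gave 3 higher and 3 lower there, and median centering 1 higher and 3 lower.

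Among the adaptors and ubiquitin ligases that link receptors to IKK, more were lower than higher in tumor. Of 22 genes, 13 were lower and 3 higher than in blood, and 10 were lower and 3 higher than in bone marrow, with medians of -0.74 and -0.48. Against blood the lower calls numbered 9 under plain library totals and 17 with median centering, and against bone marrow 8 and 17, so that lower calls exceeded higher ones under every scaling tried. Irak4, the kinase at the head of the Myd88 complex, had 1390, 1125 and 1067 reads for the marrow, 1107, 1528 and 1402 for the blood and 340, 460 and 379 for the tumor, with log2 fold changes of -2.39 ± 0.14 SE against blood (limma adjusted p 4.27e-07) and -1.79 ± 0.14 against bone marrow (limma adjusted p 3.1e-06). Card9, an adaptor of C-type lectin receptors, was lower than in both, with -2.36 ± 0.28 (limma adjusted p 4.45e-05) and -1.83 ± 0.28 (limma adjusted p 0.000306). In the other direction, Traf1, itself a known NF-kB target, had 13, 14 and 33 reads for bone marrow, 9, 40 and 28 for blood and 340, 465 and 411 for tumor, with log2 fold changes of 3.59 ± 0.46 SE (limma adjusted p 8.47e-05) and 4.26 ± 0.46 (limma adjusted p 3.17e-05). Irak2, a kinase that sustains Toll-like receptor signaling, was higher by 2.23 ± 0.17 (limma adjusted p 2.42e-06) and 2.31 ± 0.17 (limma adjusted p 2.11e-06).

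The 11 other inhibitors of the pathway were divided, with 4 higher and 4 lower in tumor than in blood and 4 higher and 3 lower than in bone marrow. Nfkbid, which encodes the nuclear IkB protein IkBNS, was, like Nfkbiz, higher in tumor than in both. Its reads were 591, 518 and 484 in the bone marrow libraries, 306, 512 and 501 in those of blood and 3748, 9336 and 6134 in those of tumor, with log2 fold changes of 3.19 ± 0.23 SE against blood (limma adjusted p 1.96e-06) and 3.31 ± 0.23 against bone marrow (limma adjusted p 1.63e-06). Tnip3, which encodes an A20-binding protein, had 0 to 7 reads in the 6 other libraries and 146, 121 and 170 in tumor (limma adjusted p 0.00648 and 0.00368). For Zc3h12a, the ribonuclease Regnase-1, tumor exceeded bone marrow by 2.44 ± 0.22 (limma adjusted p 9.23e-06) and blood by 0.63 ± 0.22 (limma adjusted p 0.0312). Cyld, a deubiquitinase, was lower than in both (-0.80 ± 0.14, limma adjusted p 0.000611, and -0.67 ± 0.14, limma adjusted p 0.00231). Tnip2, another A20-binding protein, was lower than in blood (-0.99 ± 0.19, limma adjusted p 0.00112) and higher than in bone marrow (1.40 ± 0.19, limma adjusted p 0.000139). The inhibitor counts against blood were 5 higher and 2 lower under plain library totals and 2 higher and 6 lower with median centering. Against bone marrow they were 7 higher and 1 lower, and 4 higher and 4 lower, under the same scalings.

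Known NF-kB target genes were higher in tumor in most cases. Of 20 such genes, 16 were higher and 1 lower than in blood, and 19 were higher and 0 lower than in bone marrow by limma, with medians of 2.71 and 4.63. Higher calls numbered 13 to 17 against blood and 18 or 19 against bone marrow under the 3 other scalings. Ptgs2, the inducible prostaglandin synthase, had 239, 212 and 154 reads for the marrow, 164, 198 and 108 for the blood and 26134, 45088 and 22435 for the tumor, a log2 fold change of 7.0 ± 0.30 SE against blood (limma adjusted p 1.13e-07). Ccl3, a chemokine gene, had 42 to 72 reads in the 6 other libraries and 11154, 15897 and 7709 in tumor (7.03 ± 0.29 against blood, limma adjusted p 1.05e-07). The cytokine gene Il1a had 2 to 6 reads outside the tumor and 3690, 4829 and 2367 within it (limma adjusted p 2.09e-07 against blood). The neutrophil chemoattractant gene Cxcl1 had 0 to 2 reads outside and 338, 979 and 260 within the tumor (limma adjusted p 6.64e-05 against blood). Cxcl1 passed the filter of 5 reads only through the tumor libraries. Its p-value and its place among the higher targets are therefore no independent support. Tnfaip2 was the target called lower than in blood (-0.47 ± 0.15, limma adjusted p 0.0203), while it was higher than in bone marrow (1.53 ± 0.15, limma adjusted p 1.65e-05). From bone marrow to blood 11 targets were higher and 2 lower.

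Immediate-early and heat shock genes also respond to stress and to handling of cells. They moved in the same direction as Tnfaip3, Nfkbiz, Nfkbia and Nfkbie. All 13 were higher in tumor than in blood and 12 were higher and 0 lower than in bone marrow by limma, Ier2 being the exception, with medians of 2.78 and 2.46. Hspa1b had 0 or 1 read in each library outside the tumor, so that it passed the filter of 5 reads only through the tumor libraries. Higher calls against blood numbered 11 under quantile normalization and 10 with median centering. Egr1, an immediate-early transcription factor gene, had 108, 193 and 189 reads for bone marrow, 41, 73 and 35 for blood and 15067, 22414 and 16796 for tumor, and Hspa1a, which encodes an inducible chaperone, had 8 to 32 reads in the marrow, 69 to 134 from blood and 1865 to 3145 from tumor. The list summed to 32044 to 37396 RPM in tumor, 10149 to 10426 in blood and 5699 to 6835 in bone marrow. Its part in the values of Tnfaip3, Nfkbiz, Nfkbia and Nfkbie was not tested. Among the tumor libraries, library 2 had the highest Tnfaip3, Nfkbiz and Nfkbie and the highest target gene and immediate-early sums (42570 and 37396 RPM). Library 3 had the lowest Nfkbia, Nfkbiz and Nfkbie, whereas Tnfaip3 and the immediate-early sum (32044) were lowest in library 1. The epithelial and acinar sums were lowest in library 2 and highest in library 3. The endothelial (122) and the macrophage and monocyte sums (641) were highest in library 2, and the fibroblast sum (1098) was lowest in library 1. No relation between these values was tested.

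**Figure D5:**
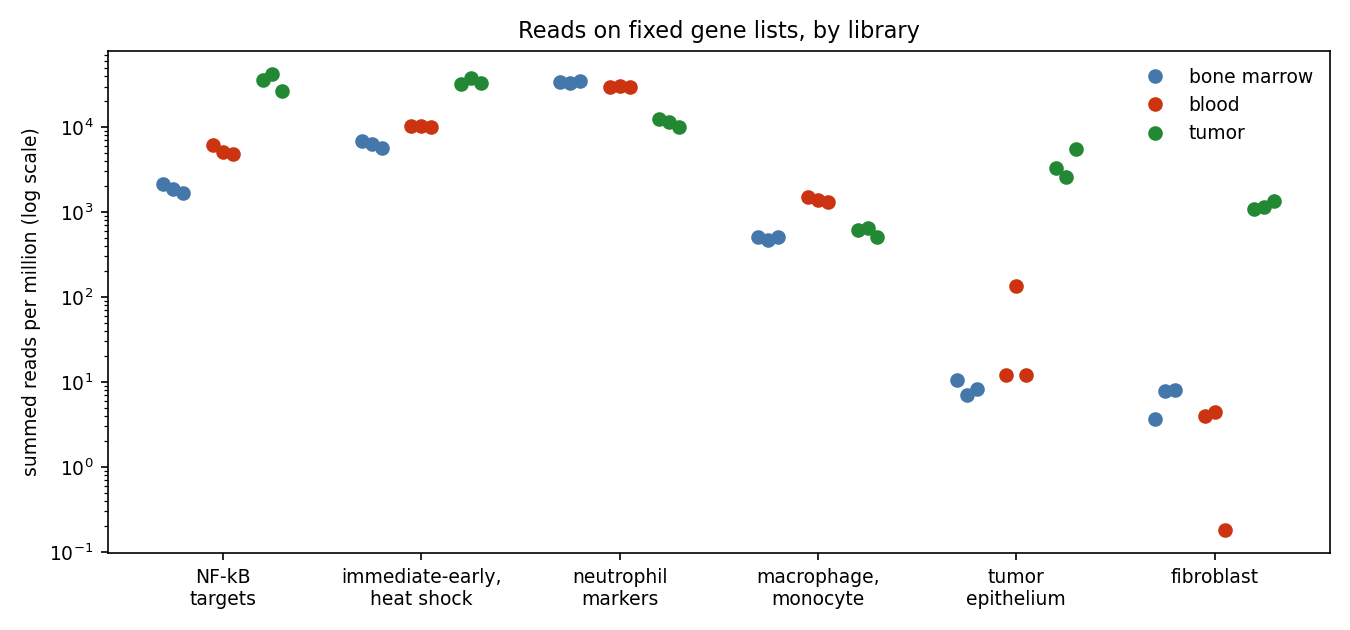
RPM summed over fixed gene lists in each library (points, log scale on the y axis). Target genes and immediate-early and heat shock genes are highest in the 3 tumor libraries, where neutrophil markers are lowest and epithelial and fibroblast markers are measured at over 1000 RPM.

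Likeness over libraries was described by Pearson's r of log2 FPKM over the 9 libraries, among 6254 other genes with at least 100 reads on average. The 9 points fall into 3 compartments and share library depth and scaling, so that a high r shows a like pattern over compartments and no more. The genes most like Nfkbia were Ctsb, a lysosomal protease (r = 0.997), and Bhlhe40, a transcription factor gene (0.995). Nfkbiz was most like 1700017B05Rik (0.998) and Hcar2, a metabolite receptor gene (0.996). The closest to Tnfaip3 were Bgn, a matrix proteoglycan gene typical of stromal cells (0.993), and Eea1, an endosome gene (0.992). Nfkbie was closest to Sod2 (0.981), which is also among the target genes above, and Cd93 (0.976). Among the subunits, Relb followed the interferon-inducible genes Gbp2 (0.995) and Oasl1 (0.993), Rel followed Atg2a (0.992) and Ndel1 (0.987), and Nfkb2 followed Ltbp1 (0.983) and Entpd3 (0.974). Nfkb1 had Lrch3 (0.968) and AF251705 (0.966), Rela had Scaf8 (0.955) and Pithd1 (0.943), and Bcl3 had the lowest best values, 2700049A03Rik (0.930) and Rnf139 (0.928).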

How the data were processed

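Neutrophil RNA was made into libraries with SMARTSeq v2, which does not mark strand, and sequenced in pairs. According to the submitters' processing notes and the study's methods, the authors mapped reads with STAR 2.5.2b to GRCm38, counted them with featureCounts 1.5.0 on GENCODE M7 genes, and the notes also name edgeR 3.8.6. The deposited table holds log2 FPKM values per gene and library, with zero counts kept finite by a small constant. Each value was turned back into reads within 1e-06 of a whole number for all 46517 genes. The length behind FPKM equaled the genomic span for 84.5% of the 46005 genes matched to GENCODE M21, which gave positions and exon lengths, so that levels between genes were compared per exon length. The authors' scaling factors were 1.08 to 1.22 in tumor and 0.796 to 0.881 elsewhere. Compartments were compared in 1 fit with limma 3.58.1 in R 4.3.3 on the deposited log2 values, with no covariate and a variance trend on mean reads, and the fit was tested on simulated data. Members and lists were chosen with earlier results of these data known. All members are named. From each list the text names up to 4 genes called in the same direction against both compartments, with the largest smaller log2 fold change, and up to 2 called in opposite directions; other list genes were named after their values were seen.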

Additional observations from a re-analysis of the deposited data

How the results depend on the processing

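The fold changes of the members and the counts of calls were recomputed under other filters, pseudocounts, scalings and variance models, without each library in turn and with a replicate block. The gene lists were recomputed under the other scalings only, and the marker sums, the order of levels, the likeness and the promoter matches under none. The called tumor differences of Tnfaip3, Nfkbiz and Nfkbia and the lower Nfkb1 in tumor than in blood kept their call under all 23 alternatives other than a fold minimum, at log2 fold changes against blood of 4.59 to 5.79, 1.58 to 2.80, 1.52 to 2.72 and -1.91 to -0.50. For Nfkb1 the filter of log2 FPKM over 0 in 3 libraries was passed only through the blood libraries and is no independent support. Under plain library totals 1 member was lower in tumor than in blood instead of 3, and values that were not called changed sign: 0.23 for Nfkb2, 0.35 for Rel and 0.34 for Relb against blood, and 0.37 for Nfkb1, 0.19 for Rela and 0.26 for Bcl3 against bone marrow. Quantile normalization gave 0.12 for Nfkb2 against blood. With median centering 6 members were lower than in blood, 2 lower than in bone marrow and 2 lower than in both, with Rela (-0.74, limma adjusted p 0.0116) and Bcl3 (-0.67, 0.0487) called lower than in bone marrow, and Rela (0.61, 0.0439) and Bcl3 (0.96, 0.0148) called higher in blood than in bone marrow. No variance trend or a minimum log2 fold change of 1 left 1 member lower than in blood. Tnfaip3 in blood against bone marrow, at -0.02 and not called, became 0.014 with FPKM + 1, 0.064 with quantile normalization, 0.26 with median centering and 0.034 with limma-voom on recovered reads, and ran from -0.23 to 0.41 without single libraries. Leaving out 1 library gave 1 to 3 members lower in tumor than in blood (1 without blood library 2, blood library 3 or tumor library 1). It also gave -0.29 to 0.14 for Rel against blood and, against bone marrow, -0.37 to 0.18 for Nfkb1, -0.43 to 0.0045 for Rela and -0.44 to 0.063 for Bcl3, values that were not called. On the log2 FPKM scale, the mean of the regulators minus that of the subunits was 1.59 in bone marrow and 3.44 in tumor, and 1.17 and 3.04 with FPKM + 1.

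Over all genes, a filter of log2 FPKM over 0 in 3 libraries (7794 genes) gave 2205 genes higher in tumor than in blood against 5970, 1766 higher than in bone marrow against 4751, 1307 higher than in both against 3671, and 1892 lower in blood than in bone marrow against 3200, with fewer genes tested. Genes lower in tumor than in both numbered 2338, and 1382 under plain totals, 3620 with quantile normalization, 4013 with median centering and 1384 with the fold minimum. Plain totals gave 2228 genes lower in tumor than in bone marrow against 3458, and median centering 5951 lower than in blood against 3731. Of the calls in tumor against blood, 61.5% were higher, and 74.5%, 44.4% and 41.4% under plain totals, quantile normalization and median centering. Against bone marrow the shares were 57.9%, 74.7%, 41.9% and 41.2%, and for blood against bone marrow 43.1%, 44.0%, 48.1% and 57.9%. The cause of these differences was not tested.

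The labels do not say whether libraries with the same replicate number came from the same experiment. Deviations from the compartment means correlated between -0.24 and 0.25 for the 9 pairs with the same number. For pairs with other numbers they ran from -0.33 to 0.30. The ranges overlap and rest on few libraries, so that this check cannot settle whether the libraries are paired. With the replicate block the counts stayed at 4 higher and 3 lower members in tumor against blood, 7 higher against bone marrow and 6 higher in blood against bone marrow. The members held between 69 reads (Tnfaip3 in blood library 1) and 27207 reads (Nfkbia in tumor library 2) a library, so that counting error weighs most on the low counts, such as Tnfaip3 and Nfkbie outside the tumor and Relb in bone marrow.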
